A study of Mus musculus with 6 samples.

Results

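The 10 genes described here handle iron and heme: Tfrc, Trf, Fth1, Cp, Aco1, Ireb2, Fech, Hmox1, Blvrb and Hp. They were chosen by name for their roles, and all 10 were found among the 35237 genes of the Cufflinks table and among the 36536 genes of the ALEXA-Seq table. RNA-Seq had been performed on 6 libraries of sorted cells from naïve C57BL/6 mice at 6 weeks of age, to find transcripts that distinguish monocytes from resident microglia. 3 libraries were bone marrow monocytes (BMDM), sorted as CD11b+ CD45high CD115+ Ly6G- cells, and 3 were brainstem microglia (BSM), sorted as CD11b+ CD45low CD115low Ly6G- cells. Each library was made from cells pooled from several mice that had been perfused before collection, with no culture, growth factor or other treatment in either group. By the labels, the mice of replicate 1 were male and those of replicates 2 and 3 female, in both groups.

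Cells take up iron when transferrin (Trf), the iron carrier of blood and brain fluid, binds the transferrin receptor (Tfrc) and both are carried into endosomes. Iron that is not used is stored in ferritin, whose heavy chain (Fth1) oxidizes it, or leaves through ferroportin (Slc40a1), the only known cellular iron exporter, helped by the ferroxidase ceruloplasmin (Cp). Iron regulatory proteins (Aco1 and Ireb2) bind hairpins in mRNAs called iron-responsive elements when iron is scarce. Binding in a 5′ UTR blocks translation, as in ferritin, and binding in a 3′ UTR protects the mRNA from decay, as in Tfrc. Ferrochelatase (Fech) inserts iron into protoporphyrin to complete heme, heme oxygenase 1 (Hmox1) breaks heme down, and biliverdin reductase B (Blvrb) acts on a product of that breakdown. Haptoglobin (Hp) binds free hemoglobin. Macrophages are known for recycling the iron of aged red cells, and microglia for storing iron in ferritin.

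The elements that place Fth1 and Tfrc under this control are shown because they sit in opposite UTRs of the pair that stores and imports iron. Transcripts of GENCODE M21 were searched on their own strand for a C, a stem of 5 bases, the loop CAGTGN and 5 further bases that pair with the stem in all 5 positions, with G-T pairs allowed. Of the 21877 genes with coding transcripts, 0.142% held a match in a 5′ UTR and 0.585% in a 3′ UTR. Of the 10 genes, Fth1 and Tfrc held one, and so did some of the other iron and heme genes described below, Ftl1 and Slc40a1 among them. The elements are given as 30 bases of build GRCm38, 5′ to 3′, with the 6 loop bases in capitals, followed by those of the ferritin light chain Ftl1 and of Slc40a1. These last ones are on the minus strand, and the other elements are on the plus strand.
Fth1, 5′ UTR, chr19:9982731-9982760: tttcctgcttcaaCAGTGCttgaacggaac
Tfrc, 3′ UTR, chr16:32631218-32631247: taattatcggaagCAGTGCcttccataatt
Tfrc, 3′ UTR, chr16:32631597-32631626: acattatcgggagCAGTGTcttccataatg
Tfrc, 3′ UTR, chr16:32631662-32631691: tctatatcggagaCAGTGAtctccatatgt
Tfrc, 3′ UTR, chr16:32631709-32631738: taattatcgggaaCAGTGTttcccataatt
Ftl1, 5′ UTR, chr7:45459779-45459808: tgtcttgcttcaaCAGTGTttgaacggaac
Slc40a1, 5′ UTR, chr1:45925465-45925494: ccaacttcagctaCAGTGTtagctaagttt
The Fth1 and Ftl1 elements were identical at 27 of 30 bases. The 4 Tfrc elements were identical to each other at 18 to 25 bases, and to the Fth1 element at 9 to 12. A match is a description of the letters and was not tested for binding.

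Both tables were made from the same libraries. Cufflinks gives FPKM (fragments scaled by transcript length and by the mapped fragments of the library), which can be compared between genes, while the unit of the ALEXA-Seq signal is not stated, so it was compared only within a gene. Neither gives read counts, so the number of reads behind a gene's value is unknown. The labelled cell types were borne out by their markers, since the 6 monocyte markers summed to between 406 and 417 FPKM in BMDM and at most 1.04 in BSM, and the 8 microglia markers summed to between 993 and 1126 in BSM and at most 20.3 in BMDM. 2 libraries stood apart. BMDM replicate 2 had the highest summed markers of erythroid cells, of granulocytes with their precursors and of lymphocytes, and 7.42% of the tested genes were listed at 0 in BSM replicate 1, against at most 1.81% elsewhere. The study's own measurements list the RNA of BSM replicate 1 as the least concentrated and the least intact of the 6. The part of RNA quality in any difference was not tested. For some genes, but not for every gene named, the value without 1 of these 2 libraries is given.

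FPKM were compared on the log2(FPKM + 1) scale with limma for 6364 genes that reached an FPKM of 3 in any library, and a gene was called at a Benjamini-Hochberg adjusted p-value under 0.05. This scale understates changes of low genes. Over all tested genes 54.5% were called, 45.3% as higher in BMDM and 9.22% as higher in BSM, and the median log2 fold change was 0.81 towards BMDM. This split depended on how libraries were scaled. When every library was given the same sum of FPKM, 968 genes were called as higher in BMDM and 1585 as higher in BSM, in place of 2883 and 587, and with quantile normalization the numbers were 1370 and 1234. With upper quartile scaling they were 1379 and 1051. FPKM summed to between 163199 and 194184 in BMDM and to between 68288 and 75021 in BSM. Log2 fold changes are therefore given as deposited, and those of the 7 tested iron and heme handling genes also relative to this median. With 3 libraries per group, the smallest two-sided p-value of an exact permutation test of a single value is 0.1. The libraries of a group came from different sorted sets of pooled mice, so p-values measure the spread between pools and not between mice.

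Of the 10 genes, 7 reached the FPKM minimum and 3 of these were called: Hp and Tfrc were higher in BMDM, and Trf was higher in BSM. That is 42.9% of the 7, below the 54.5% of all tested genes. The groups did not overlap for 4 of the 7, or 57.1%, against 66.8% of all tested genes. Hp, Tfrc and Aco1 reached the minimum only in BMDM libraries, where they were higher, so they were tested through that group alone. In the ALEXA-Seq table, where the 6364 genes with the highest values were tested, 8 of the 10 genes were tested and the same 3 were called in the same directions. That is 37.5%, against 47.9% of all tested genes there, of which 37.1% were higher in BMDM and 10.9% in BSM. The groups did not overlap for 4 of these 8, or 50.0%, against 66.1%. The number of iron and heme handling genes called was thus not above the background in either table, and what follows concerns the levels and differences of each gene.

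**Figure D1:**
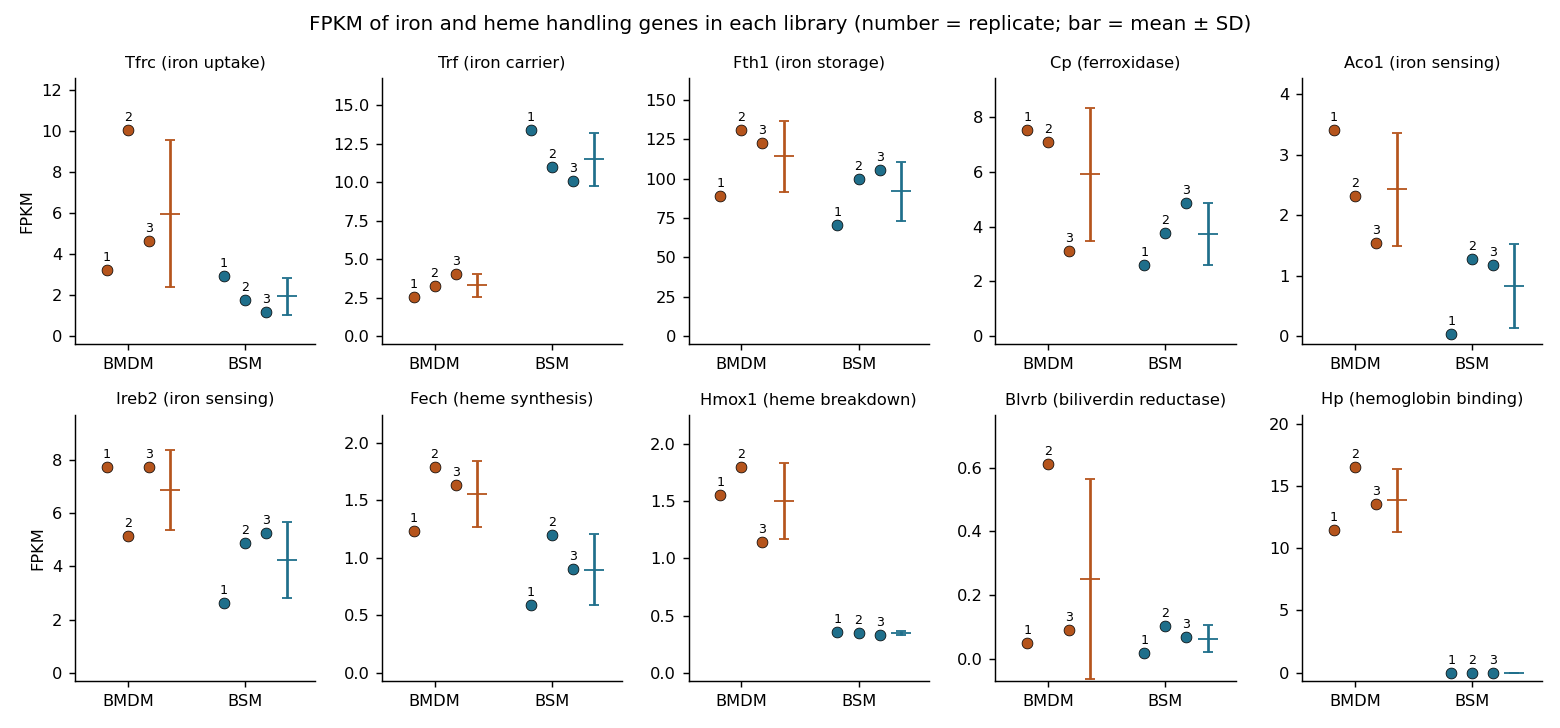
FPKM (y axis, linear, a separate scale for each gene) of the 10 genes in the 3 BMDM and 3 BSM libraries, with each point numbered by replicate and a bar for the mean ± SD. Hp is between 11.5 and 16.5 in BMDM and at most 0.00836 in BSM, Trf is higher in every BSM library, and Tfrc and Blvrb are highest in BMDM replicate 2.

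Tfrc (chr16:32609006-32632880 in mm9, the build of the files) had FPKM of 3.23, 10.0 and 4.62 in BMDM replicates 1 to 3, and of 2.92, 1.75 and 1.15 in BSM replicates 1 to 3. The groups did not overlap, but the lowest BMDM library lay just above the highest BSM library, and BMDM replicate 2 was more than double the next. BMDM averaged 5.97 ± 3.60 FPKM (SD, n = 3) and BSM 1.94 ± 0.899 (SD, n = 3), a 3.08-fold difference. The log2 fold change was 1.17 (SE 0.40, limma adjusted p = 0.0400), or 0.36 relative to the median of all tested genes. In the ALEXA-Seq table it was 1.57 (SE 0.47, limma adjusted p = 0.0308).

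The Tfrc call did not hold under many of the alternatives in either table. It was lost by FPKM without BMDM replicate 2, where the log2 fold change was 0.78 (limma adjusted p = 0.121). It was also lost without BMDM replicate 3 (1.26, limma adjusted p = 0.0879), BSM replicate 2 (1.14, limma adjusted p = 0.0846) or BSM replicate 3 (0.97, limma adjusted p = 0.114), where fewer libraries were left and the value stayed near 1.17, and the ALEXA-Seq call was lost without the same 4 libraries (limma adjusted p between 0.0763 and 0.0998). Giving every library the same sum left a log2 fold change of 0.19 by FPKM (limma adjusted p = 0.733) and 0.34 by ALEXA-Seq (limma adjusted p = 0.526). Upper quartile scaling left 0.54 (limma adjusted p = 0.305) and quantile normalization 0.46 (limma adjusted p = 0.356) by FPKM, and by ALEXA-Seq the call was lost under both as well. With a pseudocount of 0.1 the log2 fold change was 1.51 and the FPKM call was also lost (limma adjusted p = 0.0518). With no minimum, both calls were lost (limma adjusted p = 0.122 by FPKM and 0.0584 by ALEXA-Seq). Within each library, 88.1%, 93.8% and 89.5% of all genes lay below Tfrc in BMDM and 91.2%, 86.1% and 83.2% in BSM, so by rank, which no scaling of a whole library changes, the groups overlapped.

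Tfrc is abundant in red cell precursors and in dividing cells, and markers of both were also higher in BMDM. The 11 measured erythroid markers summed to 29.5, 130 and 19.3 FPKM in BMDM replicates 1 to 3, of which 9 were higher in every BMDM library, and to at most 0.204 in BSM. The highest sum was in the library with the highest Tfrc, but BMDM replicate 3 had more Tfrc than replicate 1 and a lower sum. All 10 markers of dividing cells were higher in every BMDM library. They summed to 309, 440 and 405 in BMDM replicates 1 to 3, in the same order as Tfrc, and to between 0.342 and 3.49 in BSM. Within BSM, replicate 1 had the highest Tfrc and the lowest sums of both lists, at 0 and 0.342. Their part in the Tfrc difference was not tested. In bulk samples, fewer cells of a type and less RNA per cell cannot be told apart.

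Trf (chr9:103106331-103132763 in mm9) went the other way. Its FPKM was 2.55, 3.25 and 4.05 in BMDM replicates 1 to 3 and 13.4, 11 and 10.1 in BSM replicates 1 to 3. Every BSM library was above every BMDM library, and the gap between the groups was wider than the range within either. BSM averaged 11.5 ± 1.72 FPKM (SD, n = 3), 3.49-fold the 3.29 ± 0.75 (SD, n = 3) of BMDM. The log2 fold change was -1.55 (SE 0.24, limma adjusted p = 0.00147), or -2.35 relative to the median of all tested genes, and by ALEXA-Seq it was -1.93 (SE 0.26, limma adjusted p = 0.00121). Trf was called higher in BSM under all 3 scalings, with log2 fold changes between -2.68 and -2.28 by FPKM, and without any one library, between -1.67 and -1.42. By rank, between 97.0% and 97.6% of all genes lay below Trf in BSM and between 86.2% and 88.5% in BMDM.

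Oligodendrocytes and choroid plexus are the main sources of Trf in brain. The oligodendrocyte markers Cldn11, Mal and Opalin were at 0 FPKM in all 6 libraries (Cldn11 and Opalin also by ALEXA-Seq), and the 10 markers summed to between 1.78 and 2.30 in BSM and between 7.06 and 12.8 in BMDM, with Mbp, which is also expressed by blood cells, the highest of them. Of the 10, 2 were higher in every BMDM library and 1, Mag, in every BSM library, where it was at most 0.114. The 6 choroid plexus markers summed to 0.135, 19.1 and 7.56 in BSM replicates 1 to 3, and Ttr was at 0, 8.05 and 0.794. BSM replicate 1 had the highest Trf and Ttr at 0, but also the most tested genes at 0. The part of other brain cells in the Trf level was not tested. One limit concerns the gene model: 82.1% of the longest Trf transcript matched another annotated gene, Gm20425, at 95% identity or more, and how reads shared with it were assigned is not known.

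**Figure D2:**
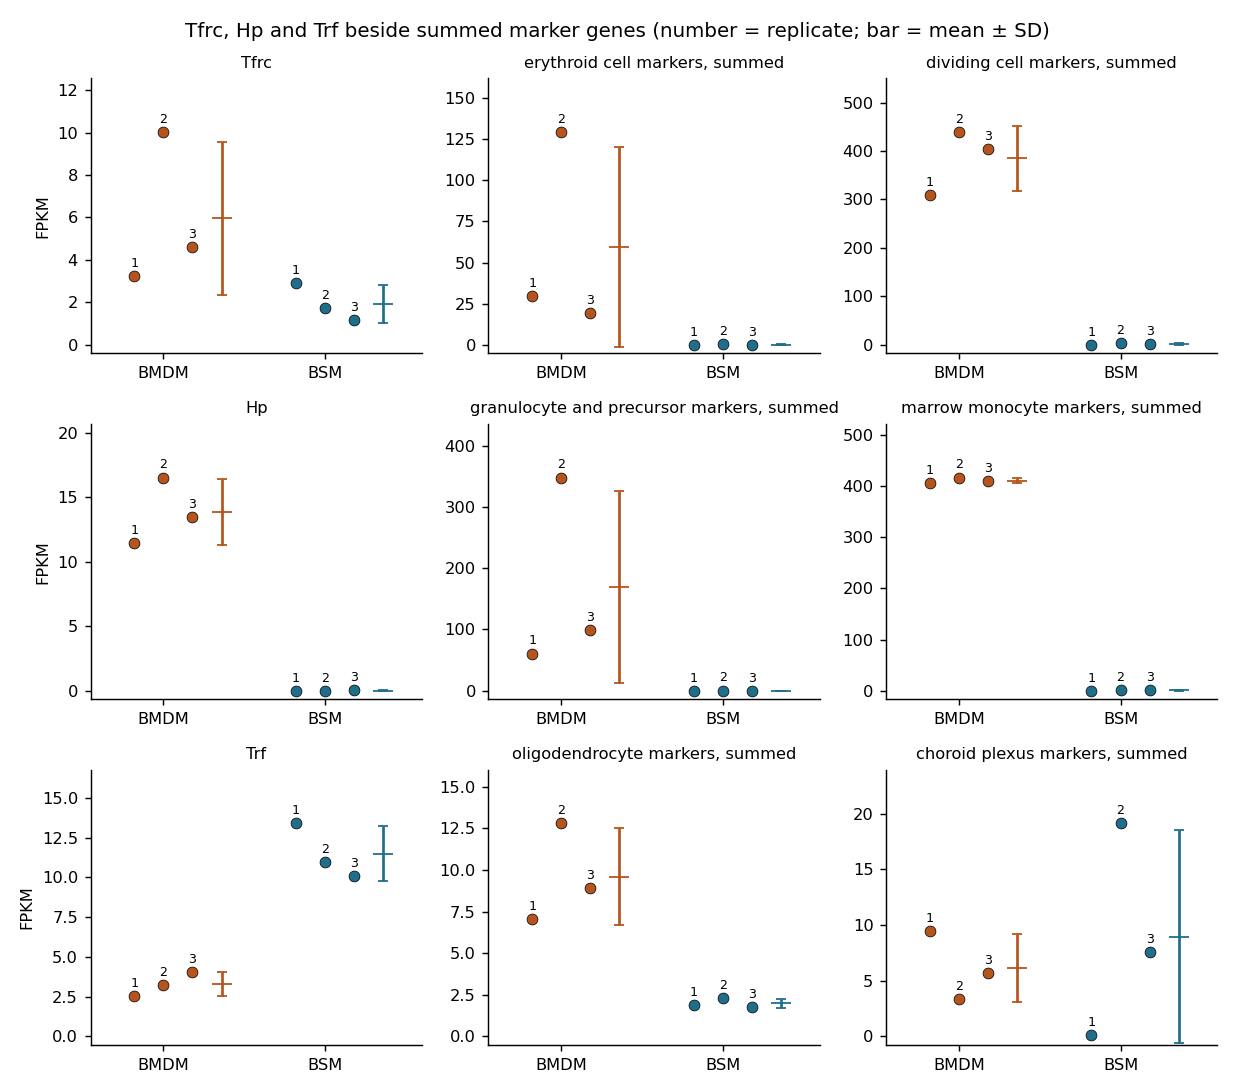
FPKM (y axis, linear) of Tfrc, Hp and Trf in the left column, beside summed FPKM of marker genes of other cell types in the same row, with points numbered by replicate and bars for the mean ± SD. BMDM replicate 2 is highest for Tfrc, Hp and the erythroid and granulocyte sums, while the oligodendrocyte sum is lower in BSM, where Trf is higher.

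Fth1 (chr19:10057194-10059582 in mm9) was the most abundant of the 10 genes in every library. Its FPKM was 88.8, 131 and 123 in BMDM replicates 1 to 3 and 70.8, 99.8 and 105 in BSM replicates 1 to 3, so the groups overlapped. BMDM averaged 114 ± 22.4 FPKM (SD, n = 3) and BSM 92.0 ± 18.6 (SD, n = 3). The log2 fold change was 0.31 (SE 0.26, limma adjusted p = 0.333), or -0.50 relative to the median of all tested genes, and without BSM replicate 1 it was 0.13 (limma adjusted p = 0.604). Its sign turned under each scaling: -0.54 with upper quartile scaling, -0.40 with quantile normalization and -1.0 with the same sum, where Fth1 was called higher in BSM (limma adjusted p = 0.0123). ALEXA-Seq gave 0.26 (limma adjusted p = 0.409) and, with the same sum, -1.02 (limma adjusted p = 0.0136). In every library between 99.6% and 99.8% of all genes lay below Fth1.

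Cp (chr3:19857054-19909145 in mm9) had FPKM of 7.54, 7.10 and 3.10 in BMDM replicates 1 to 3 and of 2.59, 3.77 and 4.86 in BSM replicates 1 to 3. The groups overlapped, because BMDM replicate 3 lay below BSM replicates 2 and 3. The FPKM log2 fold change was 0.50 (SE 0.35, limma adjusted p = 0.256), or -0.31 relative to the median of all tested genes, and the ALEXA-Seq one was -0.27 (SE 0.35, limma adjusted p = 0.543), so the tables differed in direction. The ALEXA-Seq value was called higher in BSM with quantile normalization (-1.15, limma adjusted p = 0.0171) and with the same sum (-1.51, limma adjusted p = 0.0158). It was also called with libraries weighted by their quality (-0.51, limma adjusted p = 0.0383). Astrocytes are a known source of Cp in brain. Of their 8 markers, 2 were higher in every BMDM library and 1 in every BSM library, and they summed to between 0.259 and 0.397 FPKM in BMDM and between 5.33 and 9.54 in BSM. Nearly all of the BSM sum was Slc1a3, between 5.18 and 9.51, while Gfap was at 0 in all 6 libraries. The part of astrocytes in the Cp level was not tested.

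The sensors of iron were not called as deposited where they were tested. Aco1 (chr4:40090114-40146042 in mm9), the cytosolic aconitase that becomes an iron regulatory protein when its iron-sulfur cluster is lost, had FPKM of 3.41, 2.32 and 1.54 in BMDM and of 0.0289, 1.28 and 1.17 in BSM. The groups did not overlap, and BSM replicate 1, the library with most genes at 0, was far below the others. The log2 fold change was 0.96 (SE 0.40, limma adjusted p = 0.0736), or 0.15 relative to the median of all tested genes, and 0.59 without that library (limma adjusted p = 0.101). Ireb2 (chr9:54711596-54757837 in mm9), which is degraded when iron is plentiful, had FPKM of 7.76, 5.15 and 7.75 in BMDM and of 2.61, 4.88 and 5.24 in BSM. The groups overlapped, and the log2 fold change was 0.61 (SE 0.30, limma adjusted p = 0.116), or -0.20 relative to the median of all tested genes, with a negative sign under all 3 scalings. Without BSM replicate 1 it was 0.36 (limma adjusted p = 0.197). By ALEXA-Seq the Ireb2 log2 fold change was 0.56 (SE 0.37, limma adjusted p = 0.237), and 0.22 without BSM replicate 1 (limma adjusted p = 0.449). With libraries weighted by their quality, Ireb2 was called higher in BMDM, at 0.50 by FPKM (limma adjusted p = 0.0112) and 0.39 by ALEXA-Seq (limma adjusted p = 0.0454). Aco1 did not reach the ALEXA-Seq minimum.

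Hp (chr8:112099030-112102964 in mm9) showed the largest difference of the 10 genes. Its FPKM was 11.5, 16.5 and 13.5 in BMDM replicates 1 to 3, and in BSM it was listed at 0 in replicates 1 and 2 and at 0.00836 in replicate 3. The ALEXA-Seq signal was 351, 533 and 396 in BMDM and 0, 0 and 0.578 in BSM. Hp was the second most abundant of the 10 genes in BMDM and the least abundant in BSM. No fold is given, since 2 BSM libraries are listed at 0. The limma difference on log2(FPKM + 1), which depends on the added 1, was 3.87 (SE 0.24, limma adjusted p = 1.57e-05), or 3.07 relative to the median of all tested genes, and by ALEXA-Seq it was 8.50 (SE 0.39, limma adjusted p = 3e-05). The call held under all 3 scalings and without any one library, with differences between 3.75 and 3.99 by FPKM when 1 library was left out.

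Hp is also a gene of maturing granulocytes. The 10 markers of granulocytes and their precursors summed to 60.6, 348 and 99.0 FPKM in BMDM replicates 1 to 3, with 9 of 10 higher in every BMDM library, and to at most 0.116 in BSM, although the sort excluded Ly6G+ cells. Between BMDM libraries this sum ranged over 5.75-fold and Hp over 1.44-fold. Without BMDM replicate 2 the Hp difference was 3.75 (limma adjusted p = 0.000303). The part of these cells in the Hp level was not tested.

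The enzymes of heme were low. Hmox1 (chr8:77617521-77624488 in mm9) had FPKM of 1.56, 1.80 and 1.14 in BMDM replicates 1 to 3 and of 0.359, 0.349 and 0.326 in BSM replicates 1 to 3. Every BMDM library was at least 3 times the highest BSM library, and the means of 1.5 ± 0.335 (SD, n = 3) and 0.345 ± 0.0169 (SD, n = 3) differed 4.36-fold. Hmox1 was under the FPKM minimum of 3. With a minimum of 1, where 44.9% of 9637 genes were called, its log2 fold change was 0.89 (SE 0.21, limma adjusted p = 0.0117). Relative to the median of those genes it was 0.31. Hmox1 reached this lower minimum only in BMDM, the group where it was higher. Within each library, 82.6%, 81.8% and 79.0% of all genes lay below Hmox1 in BMDM and 80.4%, 73.8% and 73.7% in BSM, so by rank the groups overlapped. ALEXA-Seq gave a smaller contrast, with signals of 35.8, 42.1 and 22.7 in BMDM and 4.96, 15.7 and 20.6 in BSM, a 2.44-fold difference of means that was not called (log2 fold change 1.38, SE 0.58, limma adjusted p = 0.0900). With quantile normalization the ALEXA-Seq value was 0.13 and with the same sum 0.16, and without BSM replicate 1 it was 0.82 (limma adjusted p = 0.0770).

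Fech, on chromosome 18, had FPKM of 1.23, 1.79 and 1.63 in BMDM replicates 1 to 3 and of 0.587, 1.20 and 0.904 in BSM replicates 1 to 3. The groups were separated by a narrow margin, between BMDM replicate 1 and BSM replicate 2, and in the ALEXA-Seq table they overlapped. The means of 1.55 ± 0.289 (SD, n = 3) and 0.896 ± 0.306 (SD, n = 3) differed 1.73-fold. Fech was also under the FPKM minimum of 3, and by ALEXA-Seq its log2 fold change was 0.64 (SE 0.41, limma adjusted p = 0.229), negative under all 3 scalings and 0.36 without BSM replicate 1 (limma adjusted p = 0.340). Blvrb (chr7:28232997-28251163 in mm9) was the least abundant of the 10 genes in BMDM, with FPKM of 0.0479, 0.612 and 0.0907, and in BSM it was 0.0184, 0.102 and 0.0667. The groups overlapped, and the 4.01-fold ratio of means came from BMDM replicate 2, since the ratio of medians was 1.36. Blvrb was not tested in either table. It is abundant in red cells, and BMDM replicate 2 was also the library with the highest erythroid markers.

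**Figure D3:**
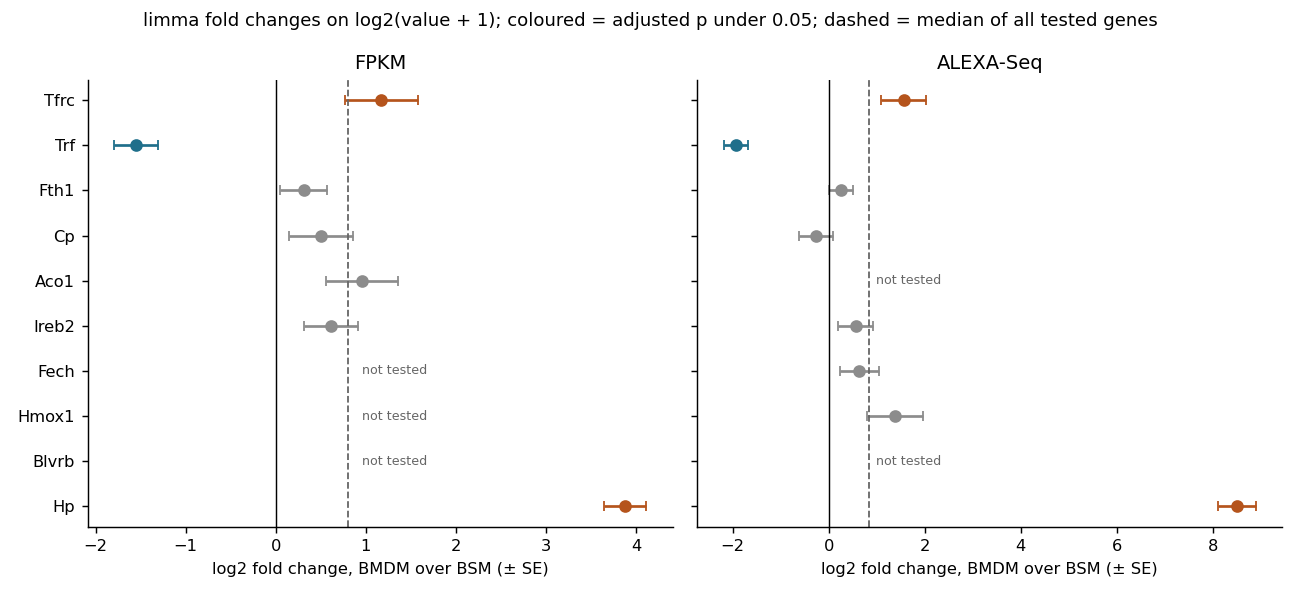
Log2 fold change on log2(value + 1), BMDM over BSM (x axis, ± SE from limma), of each tested gene in the FPKM and ALEXA-Seq tables. Tfrc and Hp are called higher in BMDM and Trf higher in BSM in both tables, and the dashed lines mark the medians of all tested genes at 0.81 and 0.84.

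**Figure D4:**
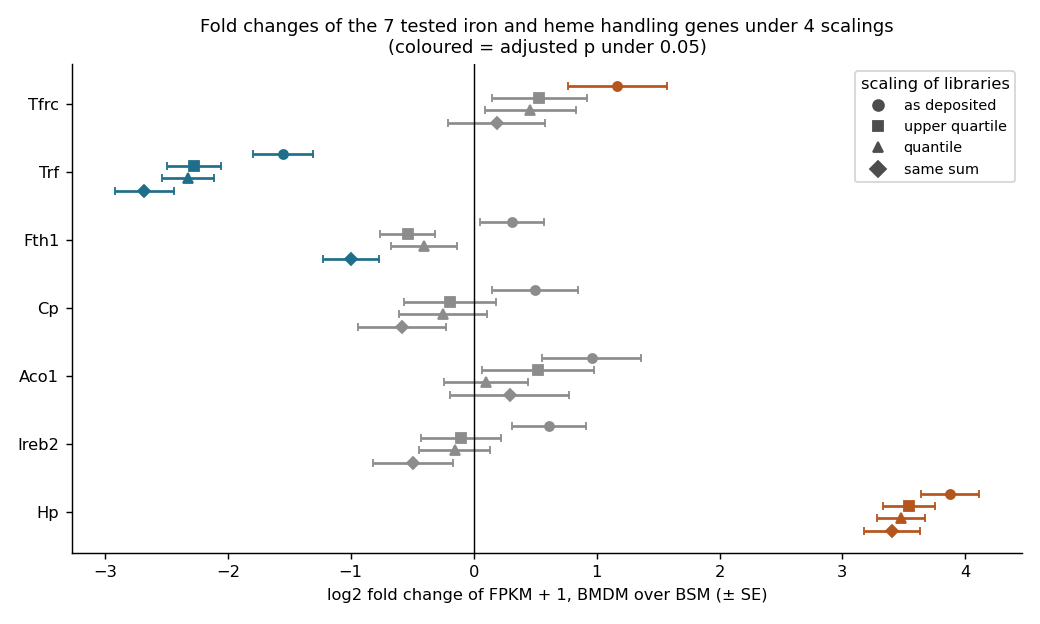
Log2 fold change on log2(FPKM + 1), BMDM over BSM (x axis, ± SE), of the 7 genes tested by FPKM, as deposited and after 3 scalings of the libraries. Hp and Trf are called under each scaling, Tfrc only as deposited, and Fth1, Cp and Ireb2 change sign.

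Ordered by mean FPKM, Fth1 led in BMDM and was followed by Hp, each above the next without overlap. Ireb2, Tfrc, Cp, Trf, Aco1, Fech and Hmox1 came next, with means from 6.89 down to 1.5, and each overlapped the next among these 7. Blvrb was last and did not overlap Hmox1. In BSM the order was Fth1, Trf, then Ireb2, Cp, Tfrc, Fech, Aco1 and Hmox1, where neighbours overlapped from Ireb2 to Hmox1, then Blvrb and last Hp. The main exchange between the 2 cell types was thus Hp at the second place in BMDM and Trf at the second place in BSM, with mean FPKM of 13.9 and 11.5. On the ALEXA-Seq scale the ratio of signal to FPKM was 30.8 for Hp, above the 95th percentile of 28.3 over genes tested in both tables, and 5.96 for Cp and 6.58 for Tfrc, against a median of 14.4, so levels of these genes depended on the table.

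Ratios of genes within a library do not change when a library is scaled, and 6 were taken after the values were known. The FPKM ratio of Trf, the carrier, to Tfrc, its receptor, was 0.791, 0.323 and 0.877 in BMDM and 4.6, 6.28 and 8.76 in BSM, without overlap (exact permutation test, two-sided p = 0.1, the smallest possible, and 0.2 after Benjamini-Hochberg adjustment over the 6 ratios). The FPKM ratio of Fech to Hmox1, the last step of heme synthesis to the first of its breakdown, was 0.790, 0.994 and 1.43 in BMDM and 1.63, 3.43 and 2.77 in BSM, also without overlap (exact permutation test, two-sided p = 0.1). Both genes are under the FPKM minimum, and by ALEXA-Seq this ratio was 0.769, 1.04 and 1.53 in BMDM and 2.94, 2.05 and 1.09 in BSM and overlapped. The ratio of Fth1 to Tfrc was 27.5, 13.0 and 26.6 in BMDM and 24.3, 57.1 and 91.9 in BSM and overlapped (exact permutation test, two-sided p = 0.3). The ratio of Aco1 to Ireb2 overlapped as well (exact permutation test, two-sided p = 0.3). By ALEXA-Seq the ratios of Trf to Tfrc, of Fth1 to Tfrc and of Aco1 to Ireb2 did not overlap. The ratio of Trf to Tfrc could not overlap in either table, since both genes were already separated between the groups in opposite directions. Its p-value was therefore fixed in advance and adds nothing to the values of each gene. A ratio shows unequal change and not which of its genes changed.

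Another 78 genes of iron and heme were grouped by role, of which 74 were in each table and 29 reached the FPKM minimum. Of the 29, 8 were called with BMDM higher and 3 with BSM higher, 37.9% in all against the 54.5% of all tested genes, and their median log2 fold change was 0.23 against 0.81. By ALEXA-Seq 24 were tested, of which 7 were called higher in BMDM and 1 in BSM, or 33.3% against 47.9%, with a median of 0.61 against 0.84. Both tables called Pcbp1, Pcbp2, Lcn2, Tmem14c and Fam96a, among others, as higher in BMDM, and Slc40a1 as higher in BSM. Some reached the FPKM minimum only in the group where they were higher, as Lcn2 did in BMDM and Slc40a1 in BSM.

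Of the genes of iron export and secreted iron binding, Slc40a1 had FPKM of 0.145, 1.55 and 0.230 in BMDM replicates 1 to 3 and of 2.45, 6.01 and 5.46 in BSM replicates 1 to 3. The groups did not overlap, and the log2 fold change was -1.82 (SE 0.42, limma adjusted p = 0.00833), or -3.40 by ALEXA-Seq (SE 0.85, limma adjusted p = 0.0160). It was called under each of the 16 alternatives by FPKM and under 14 of 16 by ALEXA-Seq. Lcn2, a binder of iron-carrying siderophores and a granulocyte gene, was 2.09, 8.76 and 0.947 in BMDM and 0 in all BSM libraries, and was highest in BMDM replicate 2. Its log2 fold change was 1.96 (limma adjusted p = 0.0205), 1.3 without that library (limma adjusted p = 0.00822) and 1.56 with quantile normalization, where it was not called (limma adjusted p = 0.0545). Lactoferrin (Ltf), of the same granules, was 0.355, 3.48 and 0.348 in BMDM and 0 in BSM, was named after its values were seen, and was called by ALEXA-Seq only (limma adjusted p = 0.0177 there and 0.136 by FPKM).

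In iron storage and chaperoning, Ftl1 had FPKM of 11.2, 23.0 and 16.2 in BMDM and of 17.1, 11.8 and 5.98 in BSM and overlapped (log2 fold change 0.55, limma adjusted p = 0.280). By ALEXA-Seq it was called higher in BSM with the same sum (-1.31, limma adjusted p = 0.034). Ftl1 has close copies in the mouse genome, so its level is uncertain. The ratio of Fth1 to Ftl1 in a library was between 4.13 and 17.6 and overlapped between the groups (exact permutation test, two-sided p = 0.7). Pcbp2, a chaperone that delivers iron, was 18.5, 31.1 and 25.1 in BMDM and 5.57, 7.67 and 7.35 in BSM, with a log2 fold change of 1.7 (limma adjusted p = 0.00142). Giving every library the same sum left 0.49 (limma adjusted p = 0.134), or 1.27 by ALEXA-Seq (limma adjusted p = 0.0857), and both calls were lost. Pcbp1, a chaperone for ferritin, had a log2 fold change of 0.97 (limma adjusted p = 0.0115), which fell to 0.15 with the same sum (limma adjusted p = 0.653). Its ALEXA-Seq call was lost without BMDM replicate 2 (limma adjusted p = 0.079). Ncoa4, which brings ferritin to the lysosome, was between 1.32 and 2.75 in all libraries and was not tested by FPKM.

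Of the 6 tested genes of iron-sulfur cluster assembly, 4 were called by FPKM, each as higher in BMDM, against 45.3% of all tested genes, and 2 of 6 by ALEXA-Seq, against 37.1%. Fam96a, of the cytosolic assembly machinery, had the largest FPKM difference of the list on this scale, with FPKM of 55.4, 68.1 and 61.9 in BMDM and of 0.948, 5.71 and 4.63 in BSM (log2 fold change 3.90, SE 0.45, limma adjusted p = 0.000325). BSM replicate 1 was the lowest library, and Fam96a was called under all 16 alternatives by FPKM. Lyrm4 and Hscb, named after their values were seen, were called as deposited but lost their calls under all 3 scalings. Both calls were also lost without BMDM replicate 2 (limma adjusted p = 0.077 and 0.062).

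In heme synthesis 1 of 5 tested genes was called towards BMDM and 1 towards BSM by FPKM, against 45.3% and 9.22% of all tested genes, and 1 of 4 towards BMDM by ALEXA-Seq. Tmem14c, which imports a porphyrin precursor into the mitochondrion, had a log2 fold change of 1.19 (limma adjusted p = 0.0166), which was not called under the 3 scalings by FPKM. Ppox, of the step before Fech and named after its values were seen, had one of -0.81 (limma adjusted p = 0.0356) and was not called by ALEXA-Seq (limma adjusted p = 0.0753). Its FPKM call held under 9 of 16 alternatives and was lost without BMDM replicate 2 (-0.69, limma adjusted p = 0.0741). The rate-limiting enzymes were under the FPKM minimum, with Alas1 between 1.57 and 2.83 in BMDM and between 0.304 and 1.27 in BSM, and the erythroid Alas2 at most 1.48, in BMDM replicate 2.

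Of the genes of heme scavenging, transport and breakdown, Hmox2, the constitutive heme oxygenase, had FPKM between 3.98 and 7.46 in BMDM and between 3.85 and 4.94 in BSM (log2 fold change 0.23, limma adjusted p = 0.487), and in BSM every Hmox2 value was above every Hmox1 value. With the same sum, Hmox2 was called higher in BSM by FPKM (-0.87, limma adjusted p = 0.0277). ALEXA-Seq gave the same call (-1.16, limma adjusted p = 0.0196). Hmox2 was not called under any other alternative. Lrp1, the receptor of the heme-hemopexin complex, was not called as deposited (log2 fold change -0.37, limma adjusted p = 0.286). Under each scaling Lrp1 was called higher in BSM, between -1.55 and -1.13 by FPKM and between -1.74 and -1.19 by ALEXA-Seq. It was also called with libraries weighted by their quality, so under 4 of 16 alternatives in each table. Abcg2, a transporter of porphyrins named after its values were seen, was 0.884, 0.549 and 1.45 in BMDM and 4.26, 5.93 and 5.24 in BSM (log2 fold change -1.66, SE 0.27, limma adjusted p = 0.00175) and was not tested by ALEXA-Seq. Cd163, the receptor of haptoglobin-hemoglobin, was at most 0.523 in any library, and Blvra, the main biliverdin reductase of adults, was between 1.27 and 1.77 in BMDM and between 0 and 1.24 in BSM.

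None of the 4 tested genes of iron uptake, of the 2 of iron regulatory protein control or of the 3 transcription factors was called by limma on FPKM as deposited. Of these 9, 1, Bach1, had an unadjusted p-value under 0.05. By ALEXA-Seq no gene of iron uptake was tested, and the 5 tested genes of the other groups gave the same result. Slc11a1, an iron transporter of phagosomes, had FPKM between 1.46 and 2.96 in BMDM and between 0.302 and 3.91 in BSM. Its log2 fold change was 0.02, and -0.59 without BSM replicate 1 (limma adjusted p = 0.0867). Fbxl5, the ligase that marks Ireb2 for degradation, was between 9.32 and 16.2 in BMDM and between 3.13 and 10.5 in BSM (log2 fold change 0.90, limma adjusted p = 0.0970). Without BSM replicate 1 the Fbxl5 value was 0.46 (limma adjusted p = 0.170). Bach1, the heme-sensing repressor of Hmox1, was between 7.42 and 10.0 in BMDM and between 0.794 and 5.69 in BSM, without overlap, and its log2 fold change of 1.22 was not called (limma adjusted p = 0.0602). It was called without BSM replicate 1, at 0.64 (limma adjusted p = 0.0356), and without BSM replicate 3, at 1.59 (limma adjusted p = 0.0286). With upper quartile scaling, quantile normalization and the same sum, Bach1 fell to 0.54, 0.34 and 0.17 (limma adjusted p = 0.449, 0.499 and 0.826). By ALEXA-Seq it was not called as deposited (limma adjusted p = 0.0734) and fell to 0.22 with the same sum (limma adjusted p = 0.792). Nfe2l2, the activator of Hmox1 and Fth1, was between 16.6 and 17.2 in BMDM and between 14.0 and 15.3 in BSM (log2 fold change 0.19, limma adjusted p = 0.460). Its sign turned under all 3 scalings. By FPKM it was called higher in BSM with upper quartile scaling (-0.62, limma adjusted p = 0.0428) and with the same sum (-1.06, limma adjusted p = 0.0051). By ALEXA-Seq it was called with quantile normalization (-0.64, limma adjusted p = 0.0488) and with the same sum (-1.18, limma adjusted p = 0.0049). Hmox1 and Bach1 were both higher in every BMDM library than in any BSM library by FPKM.

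Of the genes with an iron-responsive element shown above, Slc40a1 was called higher in BSM and Tfrc was called higher in BMDM with the limits given. The ferritin chains Fth1 and Ftl1 were not called as deposited. As deposited, the FPKM of Slc40a1 and Tfrc differed in opposite directions, but the Tfrc call was lost under all 3 scalings and its ranks overlapped. The FPKM ratio of Slc40a1 to Tfrc, taken after the values were known, was 0.0450, 0.154 and 0.0497 in BMDM and 0.840, 3.44 and 4.76 in BSM. It did not overlap (exact permutation test, two-sided p = 0.1, and 0.2 after Benjamini-Hochberg adjustment over the 6 ratios). This outcome was fixed in advance, since each gene was already separated between the groups, and it adds nothing to the values of each gene. Transcript levels do not measure translation, which elements in a 5′ UTR act on.

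**Figure D5:**
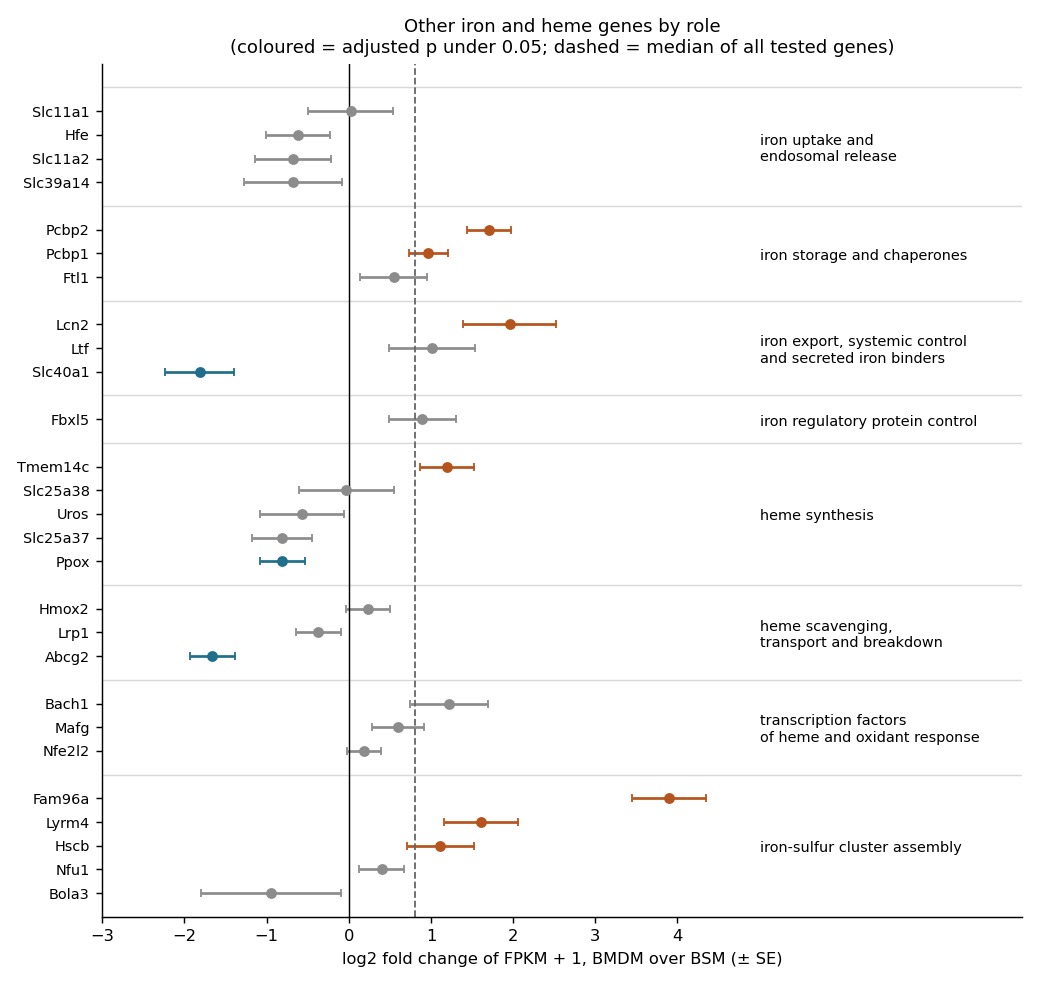
Log2 fold change on log2(FPKM + 1), BMDM over BSM (x axis, ± SE), of 27 of the other iron and heme genes tested by FPKM, grouped by role. Coloured points are called: 7 to the right, led by Fam96a at 3.90, and 3 to the left, led by Slc40a1 at -1.82, and the dashed line is the median of all tested genes at 0.81.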

How the data were processed

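The authors made both tables from the same 6 RNA-Seq libraries. FPKM per gene were deposited by the authors from Cufflinks, and the submitters' processing notes name CASAVA 1.7.0, Bowtie 0.12.7, TopHat 1.3.1, Cufflinks 1.0.3 and mm9. The ALEXA-Seq values deposited by the authors are a signal per gene whose unit, version and normalization are not given in the sources used here. Neither table holds counts, so no count test was used and the reads behind a value are unknown. Samples were grouped by their labels.

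Values were compared with limma 3.58.1 in R 4.3.3 (empirical Bayes with a mean-variance trend, no covariate) on log2(value + 1), for 6364 genes that reached an FPKM of 3 in any library and for as many genes taken by highest ALEXA-Seq signal. Benjamini-Hochberg adjustment covered all genes tested, and calls were made under 0.05. This step was first tested on simulated data. The 10 genes, the 78 other iron and heme genes and the marker lists were chosen with earlier results of these data known. All 10 genes are named, and of the others those called in both tables, defining genes of a role, and a few named after their values were seen. Alternatives were another pseudocount (0.1), minimum (1 or none), scaling, moderation, library weights, sex, the replicate number and leaving out each library. Element sequences came from GENCODE M21 transcripts (GRCm38), not from mm9, and no coordinate was converted. Copies were sought with blastn 2.17.0, as matches of at least 100 bases at 95% identity. Tables and plots were made in Python 3.11.15 (pandas 2.3.3, numpy 2.4.6, matplotlib 3.10.9). The Exon arrays were not analysed here. Some genes of the lists are counted but not reported here by name.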

Additional observations from a re-analysis of the deposited data

How the results depend on the processing

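The reads behind each value and the unit of ALEXA-Seq are unknown, and the direction of small differences depended on scaling. With upper quartile scaling, quantile normalization and the same sum of values, the genes called higher in BMDM by FPKM numbered 1379, 1370 and 968 (2883 as deposited) and those higher in BSM 1051, 1234 and 1585 (587). In the same order of scalings the log2 fold change reversed to -0.54, -0.40 and -1.0 for Fth1 by FPKM and -0.47, -0.50 and -1.02 by ALEXA-Seq, to -0.10, -0.16 and -0.50 for Ireb2 by FPKM and -0.17, -0.18 and -0.71 by ALEXA-Seq, to -0.19, -0.25 and -0.58 for Cp by FPKM, and to -0.074, -0.30 and -0.61 for Fech by ALEXA-Seq. Library quality weights turned Cp by FPKM to -0.063 and gave 882 genes higher in BSM by FPKM, 4811 genes by ALEXA-Seq (3050), 5 of the 10 genes by ALEXA-Seq (3), and 21 and 17 of the other iron and heme genes by FPKM and ALEXA-Seq (11 and 8). A minimum FPKM of 1, which tests more genes, gave 18 and 14. Leaving out 1 library gave between 1971 and 3984 genes by ALEXA-Seq and between 7 and 13 other iron and heme genes by FPKM, fewest in each case without BMDM replicate 3. The cause of these changes was not tested, apart from the number of genes tested at a minimum of 1.

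Whether same-numbered libraries came from the same mice is not known, and the main comparison did not pair them. Deviations of same-numbered libraries correlated at -0.02, -0.01 and 0.13 by FPKM and at 0.02, 0.04 and 0.10 by ALEXA-Seq. Not every library correlated best with its own number. Correlations this weak cannot show whether the libraries were paired. With a replicate block, 3471 genes were called by FPKM and 2885 by ALEXA-Seq, with 3 and 2 of the 10 genes, since Tfrc lost its ALEXA-Seq call (limma adjusted p = 0.0578). Of the remaining values, 129 counts stayed within 1.5 times. Another 222 values of single genes counted as unchanged. Tested fold changes among them kept their direction and their side of the threshold. Ratios of means and differences that were not tested moved by less than the SD between libraries of a group on the log2 scale. That SD was wide for Blvrb, whose ratio of 4.01, or 1.36 by medians, was counted as unchanged. Of the fold changes, 18 lost a call, all of them values of Tfrc by FPKM or ALEXA-Seq. Another 5 gained a call, all of them values of Ireb2 or Cp. The ratio of means moved from 4.36 to 2.44 for Hmox1 and from 1.58 to 0.809 for Cp with ALEXA-Seq in place of FPKM.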
